A study of Homo sapiens with 6 samples.

Results

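The subject here is CCT, also called TRiC, the chaperonin of the eukaryotic cytosol, measured in Caco-2 cells that did or did not overexpress apoM. Its 8 subunit genes, TCP1, CCT2, CCT3, CCT4, CCT5, CCT6A, CCT7 and CCT8, were chosen by name, and a gene was read on the array feature that carries its symbol alone in the platform annotation. This gave 7 of the 8 subunits among 33616 genes tested, each on 1 feature. TCP1, the alpha subunit, is listed only on a feature with several gene symbols and was not analysed here. The arrays compared were 3 of Caco-2, a human colon carcinoma line, overexpressing apoM, against 3 of Caco-2 labelled NC, with total RNA labelled with biotin for Affymetrix arrays. The sources used here do not say how apoM was overexpressed, what NC stands for or whether each array had its own culture. The p-values therefore cover only the spread among these 6 arrays, which may be technical. Apolipoprotein M, encoded by APOM, carries sphingosine-1-phosphate in plasma, and the comparison asked what changes in these cells as its level changes. In RNA of a whole culture, fewer cells with a transcript and less of it per cell cannot be told apart.

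CCT is a double ring in which each ring holds the 8 different subunits in a fixed order. It encloses newly made proteins and folds them in cycles of ATP binding and hydrolysis. Actin and tubulin depend on it, as do many proteins built of WD40 repeats, such as G protein beta subunits and the mitotic activator CDC20. Prefoldin hands unfolded chains to the ring, and the phosducin-like proteins bind the ring as cochaperones. In yeast the subunits differ in how tightly they bind ATP: those equivalent to TCP1, CCT2, CCT4 and CCT5 bind it more tightly than those equivalent to CCT3, CCT6A, CCT7 and CCT8, and the subunits are described in that order below.

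The array values were log2 summaries, so a difference of 1 is a doubling. APOM itself read 15.49, 15.56 and 15.85 on the overexpression arrays, against 5.38, 5.84 and 6.41 on the NC arrays, which goes with the labels. Markers of a colon epithelial line were bright in both groups, with means over the 6 arrays between 12.87 for CDX2 and 18.34 for KRT8. None of the 7 passed: EPCAM, VIL1, CDH1 and CDX2 had changes between -0.02 and 0.18, and the keratins KRT18, KRT8 and KRT19 had 0.61, 0.48 and 0.43 (limma adjusted p from 0.0850 to 0.219), changes within the range of the CCT subunits. Summed on the linear scale, the 7 markers came to a log2 level of 19.59 to 19.82 on the overexpression arrays and 19.26 to 19.48 on the NC arrays, and their part in the changes below was not tested. Markers of other cell types were dim: leukocyte, endothelial and erythroid genes had mean values of at most 6.43, and of the fibroblast genes COL1A1 stood highest at 9.17. Between the groups, 691 of 33616 genes, or 2.06%, had a limma adjusted p under 0.05, and the median change of all genes was 0.09. With 1 array left out this count ran from 2, without overexpression replicate 1, to 2358, without NC replicate 3, and it was 50 with the replicate block. The shares of passing genes given below come from the fit with 691. The arrays were not equally far apart: on the first principal component, which held 51.1% of the variance, NC replicate 3 lay at 7.11, between the overexpression arrays at -41.9, -39.6 and -24.3 and the other NC arrays at 59.6 and 39.0.

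All 7 CCT subunits measured had higher mean values in the overexpression group, by 1.20-fold to 1.58-fold, and none of them passed the test over all genes. The limma adjusted p ran from 0.0753 for CCT7 to 0.387 for CCT3. The share of all genes that passed in this direction was 1.70%, and it was 3.30% among 696 protein-coding genes of similar brightness. These are the protein-coding genes with a mean log2 value of 14.03 or more, the lowest mean among the 7 subunits, and they serve as the comparison below. A positive change was found in 62.9% of all genes and in 67.8% of these bright genes, so the shared direction of the subunits was also the common one.

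Promoter sequence is shown for the subunits at the ends of this range, together with the heat shock sites found near subunit genes, because heat shock factors are known regulators of cytosolic chaperone genes. The sequences are from RefSeq, build GRCh38.p14, and are the 250 bases before the annotated start, 5′ to 3′ on the gene's strand. Capitals mark a CCAAT box (CCAAT or ATTGG). CCT7, with the largest change, lies at chr2:73234058-73234307 on the plus strand, and CCT3, with the smallest, at chr1:156338293-156338542 on the minus strand.
CCT7: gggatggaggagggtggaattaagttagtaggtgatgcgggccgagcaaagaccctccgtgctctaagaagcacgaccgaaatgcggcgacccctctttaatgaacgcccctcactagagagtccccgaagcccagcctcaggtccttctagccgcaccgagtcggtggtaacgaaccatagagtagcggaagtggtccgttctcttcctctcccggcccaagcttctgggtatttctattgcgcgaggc
CCT3: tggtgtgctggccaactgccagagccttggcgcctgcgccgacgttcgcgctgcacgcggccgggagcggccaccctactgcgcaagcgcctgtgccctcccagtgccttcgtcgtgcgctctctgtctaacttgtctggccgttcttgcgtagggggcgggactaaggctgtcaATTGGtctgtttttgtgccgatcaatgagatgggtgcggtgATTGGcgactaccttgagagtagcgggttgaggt
The CCT3 stretch holds 2 CCAAT boxes and the CCT7 stretch none. Windows of 300 bases, from 250 before to 50 after a start, were listed for 6 measured subunits, 8 windows in all since CCT2 and CCT4 have 2 each. The box was present in 3 of these 8, of CCT2, CCT3 and CCT8, and in the window of TCP1. Of all 35116 such windows, 34.6% hold it. The CCT6A promoter was not analysed here.

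Capitals in the next lines mark a pair of heat shock units facing each other, GAANNTTC or TTCNNGAA, each of which reads the same on both strands and shares no base with a CCAAT box here.
CCT4: ccggcgccgctTTCTGGAAggtt
CCT2: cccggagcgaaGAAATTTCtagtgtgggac
TCP1: tcgtttgaggcGAAGGTTCaacctcttccc
The pair begins at position 39 for CCT4, counted with a listed start as the first base (chr2:61888607-61888629, minus strand). For CCT2 it begins at position -89 from the more downstream of the listed starts (chr12:69585789-69585818, plus strand), and for TCP1 at position -231 (chr6:159789815-159789844, minus strand). It was thus found in 2 of the 8 windows of measured subunits, where 13.5% of all windows hold it. A match of letters is a description and not evidence of binding.

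Among the subunits that bind ATP more tightly in yeast, CCT4, the delta subunit, had the largest change. CCT4 read 15.96, 15.95 and 15.80 in the overexpression group, against 15.17, 15.40 and 15.52 in NC. No NC array reached the lowest overexpression array, and the change was 0.54 with a standard error of 0.16, a 95% interval from 0.18 to 0.90 and a limma adjusted p of 0.101. The span of CCT4 overlaps that of COMMD1, a gene of protein trafficking, in the gene table; COMMD1 had a change of 0.98 (limma adjusted p = 0.0584), and whether the CCT4 feature reads it was not tested. CCT2, the beta subunit, read 14.22, 14.49 and 14.09 with apoM and 13.56, 13.85 and 13.95 in NC. The groups of CCT2 were apart by 0.14 at their nearest arrays, and its change of 0.48 (SE 0.18) had a limma adjusted p of 0.173. CCT5, the epsilon subunit, which can form rings of its own outside the complex, read 15.23, 15.33 and 15.05 with apoM and 14.74, 14.80 and 14.91 in NC. Its change was 0.39 (SE 0.16, limma adjusted p = 0.207), and its groups were apart by 0.14 as well.

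Among the subunits that bind ATP less tightly in yeast, CCT7 and CCT3 marked the ends of the range. CCT7, the eta subunit, read 15.22, 15.33 and 15.24 with apoM and 14.41, 14.50 and 14.91 in NC. The overexpression arrays of CCT7 lay close together and above every NC array, while NC replicate 3 stood away from the other NC arrays and nearer to the overexpression group. The change was 0.66 with a standard error of 0.17, a 95% interval from 0.27 to 1.05 and a limma adjusted p of 0.0753. Without NC replicate 3 the change of CCT7 was 0.81 and passed (limma adjusted p = 0.0230). Over the other arrays left out in turn it was between 0.56 and 0.68, with adjusted p-values up to 0.241.

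CCT8, the theta subunit, read 14.83, 14.71 and 14.46 in the overexpression group and 14.02, 14.04 and 14.61 in NC. Its groups overlapped, since NC replicate 3 lay above overexpression replicate 3, and the change was 0.44 (SE 0.20, limma adjusted p = 0.271). CCT6A, the zeta subunit, read 15.61, 15.64 and 15.28 with apoM and 14.92, 15.26 and 15.33 in NC. The same pair of arrays made its groups overlap, and the change was 0.34 with a 95% interval from -0.06 to 0.74 (limma adjusted p = 0.345). CCT3, the gamma subunit, read 16.63, 16.77 and 16.59 with apoM and 16.23, 16.49 and 16.47 in NC. Its groups did not overlap, but the change of 0.27 had a 95% interval from -0.08 to 0.62 (limma adjusted p = 0.387). The span of CCT3 overlaps that of TSACC, a gene of a testis kinase cochaperone, whose change was 0.82 (limma adjusted p = 0.0728). With quantile normalization CCT3 gave -0.01, the only negative value of a subunit under any alternative tried.

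**Figure D1:**
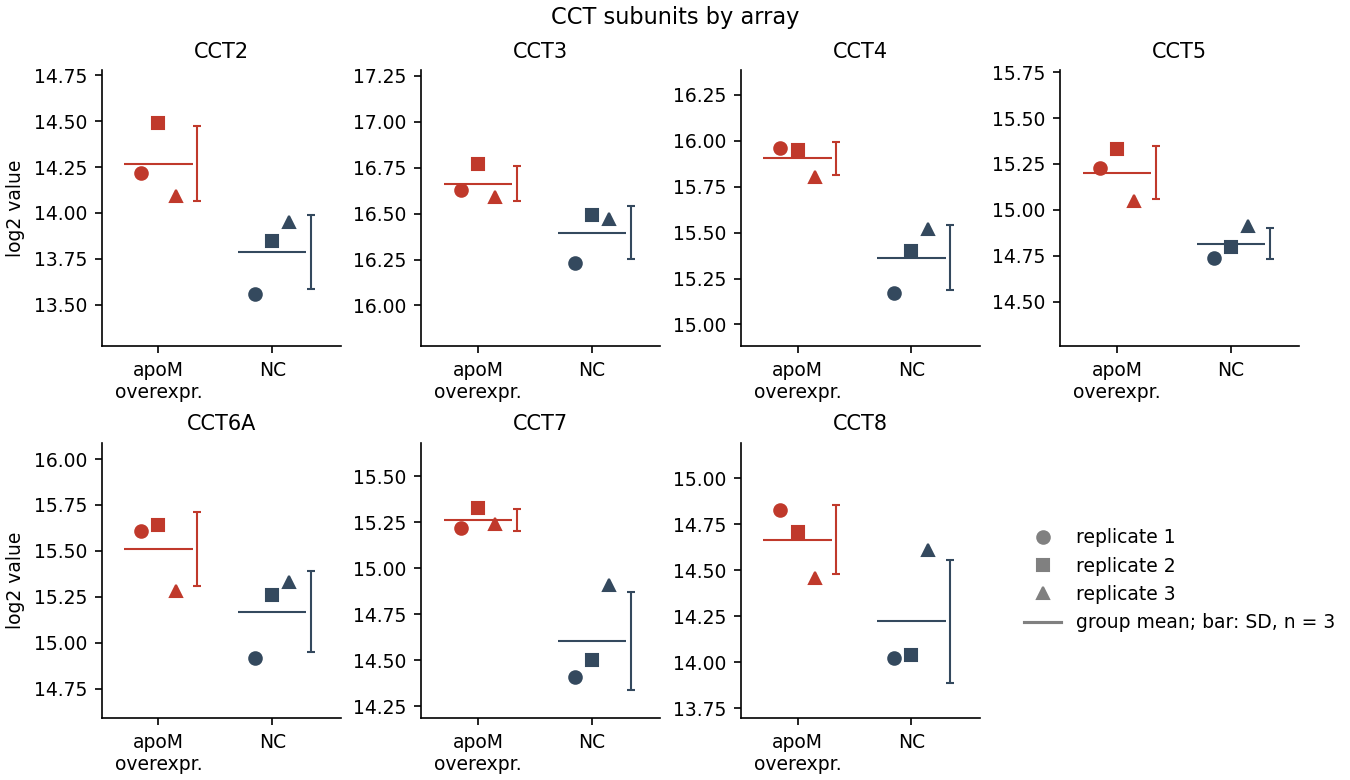
Log2 value of each of 7 CCT subunits on each array, apoM overexpression left and NC right; symbols are replicates, horizontal lines are group means and bars are the SD of 3 arrays. Every panel spans the same range; the overexpression means are higher in all 7, the groups overlap for CCT6A and CCT8, and NC replicate 1 is the lowest array in each panel.

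The groups were apart, with every overexpression array above every NC array, for 5 of the 7 subunits, CCT2, CCT3, CCT4, CCT5 and CCT7. The same held for 17.3% of all genes and 40.2% of the bright protein-coding genes. At an unadjusted p of 0.05 in limma, 4 of the 7 were higher, CCT2, CCT4, CCT5 and CCT7, against 14.3% of all genes and 31.8% of the bright ones. With 3 arrays against 3, an exact two-sided permutation test of a single gene cannot give a p below 0.1, and the subunits whose groups were apart gave that value. The median change of the 7 was 0.44, against 0.09 over all genes tested and 0.18 over the other 689 bright protein-coding genes. Ranked among those 689, the subunits lay from the 58.4 percentile for CCT3 to the 83.9 percentile for CCT7, so all stood in the upper part and none at its end. The lower and upper quartiles of the bright genes were -0.07 and 0.49, a range that takes in 5 of the 7 subunits and leaves out CCT4 and CCT7.

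The subunits followed the arrays together. As deviations from each gene's mean of 6 arrays, their medians were 0.27, 0.32 and 0.06 on overexpression replicates 1, 2 and 3, and -0.43, -0.21 and -0.06 on NC replicates 1, 2 and 3. Overexpression replicate 3 and NC replicate 3 thus stood close to each other. NC replicate 1 was the lowest array for all 7 subunits, and the highest was overexpression replicate 2 for 5 and replicate 1 for 2. The bright protein-coding genes kept the same order of arrays over a smaller range, with medians of 0.08, 0.13 and 0.04 in the overexpression group and -0.17, -0.11 and 0.007 in NC. The part of this array-wide pattern in the changes of the subunits was not tested.

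**Figure D2:**
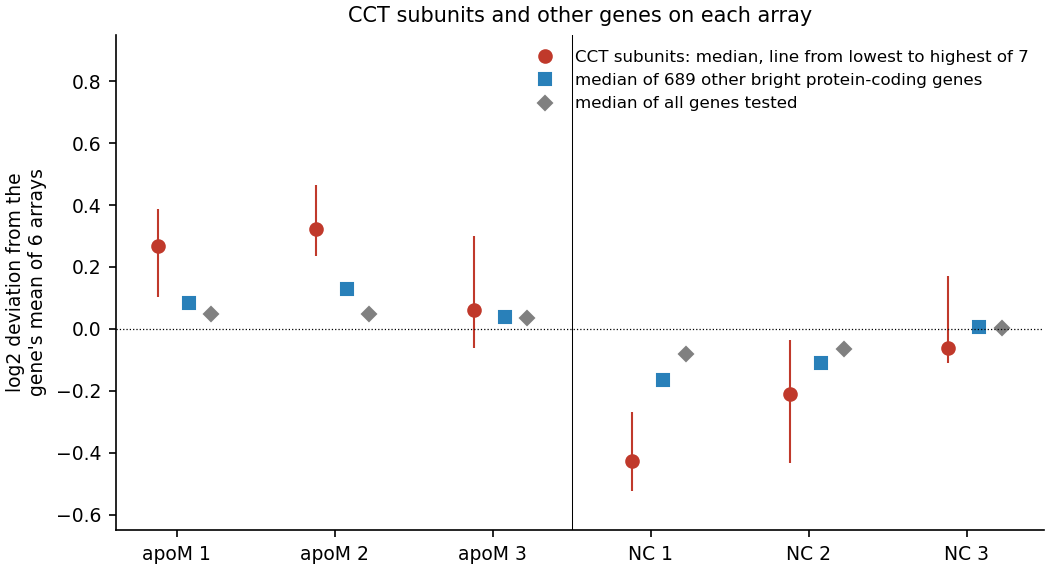
Deviation of log2 values from each gene's mean of 6 arrays, for apoM overexpression arrays left of the line and NC arrays right of it; circles are medians of the 7 CCT subunits with lines from their lowest to highest member, squares are medians of 689 other bright protein-coding genes and diamonds of all genes tested. The medians of the subunits ran from -0.43 on NC replicate 1 to 0.32 on overexpression replicate 2. Those of the bright genes ran from -0.17 to 0.13 on the same arrays.

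Across the 6 arrays, the 21 pairs of subunits correlated with a Pearson r from 0.75 to 0.98 and a median of 0.91. These points share the same arrays and the same groups, and the values are given as a description. The difference between CCT7 and CCT3, the subunits with the largest and smallest change, deviated from its mean over the arrays by 0.18, 0.16 and 0.24 on overexpression replicates 1, 2 and 3, and by -0.22, -0.40 and 0.03 on NC replicates 1, 2 and 3. This amounts to 0.39 on the log2 scale between the groups, and no test was made because the pair was picked for its size. The 95% interval of CCT7, from 0.27 to 1.05, overlaps that of CCT3, from -0.08 to 0.62. Because both genes were read on the same arrays, this overlap cannot decide whether their changes differ.

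The bright protein-coding genes whose pattern over the 6 arrays was most like the mean of the 7 subunits were KPNA2, H2AC14, RPS14, DAD1 and RPS18, with a Pearson r between 0.997 and 0.999. KPNA2 encodes an importin that carries proteins into the nucleus, H2AC14 a histone with near-identical copies elsewhere, RPS14 and RPS18 ribosomal proteins and DAD1 a subunit of the oligosaccharyltransferase. Their changes were not of the same size. KPNA2 had a change of 0.37, close to the subunits, while RPS14 had 1.50, DAD1 1.04, H2AC14 0.89 and RPS18 0.89, and none of these genes passed (limma adjusted p from 0.0508 to 0.239).

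Of 68 measured genes in 7 lists that act with CCT, are folded by it or resemble it, none passed over all genes. Prefoldin, which delivers unfolded chains, had the largest median at 0.68 over 5 measured members of 6. All 5 had a positive change, as did 62.9% of all genes and 67.8% of the bright protein-coding genes. In 4 of them every overexpression array lay above every NC array, as in 17.3% of all genes and 40.2% of the bright ones. The median level of the 5 was 12.29. PFDN4 read 16.14, 15.92 and 15.44 with apoM, against 13.76, 14.11 and 15.17 in NC, a change of 1.49 (SE 0.33, limma adjusted p = 0.0528). PFDN5 read 14.04, 14.00 and 13.45 with apoM, against 11.97, 12.32 and 13.26 in NC, a change of 1.32 (SE 0.31, limma adjusted p = 0.0578). For both, NC replicate 3 lay far above the other NC arrays, and PFDN2 was the member with almost equal groups, at a change of 0.09 (limma adjusted p = 0.821, groups overlapping). VBP1 and PFDN1 had changes of 0.68 and 0.64.

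Of the 7 phosducin-like and prefoldin-like cochaperones, all had a positive change and none passed, with a median of 0.27. UXT, a member of the prefoldin-like complex, had the largest change and read 12.06, 12.04 and 11.47 with apoM against 9.53, 10.31 and 11.14 in NC. Its change was 1.53 (SE 0.35, limma adjusted p = 0.0565), while the next largest was 0.36 for PDCL3, a cochaperone that binds CCT. URI1, the scaffold of the prefoldin-like complex, had 0.22 and PDCL, which helps CCT assemble G protein beta subunits, 0.23. The 6 tubulin folding cofactors, which take tubulin from CCT and join its alpha and beta chains, had a median of 0.52, with 5 positive changes and 1 negative. TBCA had a change of 0.86, ARL2, the GTPase that works with them, 0.84, TBCE 0.66 and TBCB 0.37, and TBCD had the only negative value, -0.07 (limma adjusted p from 0.0742 to 0.880 over the list).

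Of the proteins that CCT folds, 17 of 18 actin and tubulin genes had a positive change. The share was 62.9% among all genes and 67.8% among the bright protein-coding genes. The median of the 18 was 0.36 and none of them passed the threshold. Of the actins, ACTG1, the brightest at a mean level of 17.62, had 0.19. ACTB and ACTC1 had 0.38 each, at mean levels of 8.85 and 5.54. ACTA1 and ACTA2 had 0.02 and 0.0001, at mean levels of 8.50 and 5.055. The median level of all genes tested was 5.32. ACTG2, at a mean level of 6.15, had the only negative change, -0.21 (limma adjusted p = 0.513). TUBA4A had 1.04, TUBB2B 0.70, TUBB2A 0.57 and TUBA1C 0.55, with limma adjusted p-values from 0.0528 to 0.0933. TUBB2A and TUBB2B are near-identical, and a probe for either may read both, so their single values are uncertain. TUBA1B read 19.93 on overexpression replicates 1 and 2, the highest value of those arrays, so that its change of 0.20 may be cut short. The 15 WD40 and other clients had a median of 0.19, against 0.09 over all genes, with 10 positive changes and 5 negative. Their median level was 10.58, so most were dimmer than the bright protein-coding genes. MLST8, a subunit of the mTOR complexes, had 0.71, CDC20 0.52 and HDAC3, a histone deacetylase, 0.37. GNB5, a G protein beta subunit, was the member with the largest negative change, at -0.69 (limma adjusted p = 0.0578), and was dim at 5.89 over the 6 arrays.

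The 7 chaperonin relatives had a median of 0.20, and none passed. HSPE1, the lid of the mitochondrial chaperonin, had a change of 0.77 (limma adjusted p = 0.117), while HSPD1, its ring, had 0.20 (limma adjusted p = 0.557). CCT8L2, a testis relative of the theta subunit, was dim at 5.70 over the 6 arrays and had 0.44. BBS12, a chaperonin-like protein of the cilium, had 0.41 at a mean level of 7.36, and the groups of both genes overlapped. CCT6B, the testis form of the zeta subunit, was dim at 4.60 over the 6 arrays and had a change of -0.06. The list of the Hsp70 and Hsp90 system, which also holds HSF1 and HSPB1, had a median of 0.24 over 10 measured genes of 16. HSPB1 had 0.54, DNAJA1 0.52, HSP90AA1 0.26 and HSP90AB1 0.25, and PTGES3 had the only negative change, -0.10.

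**Figure D3:**
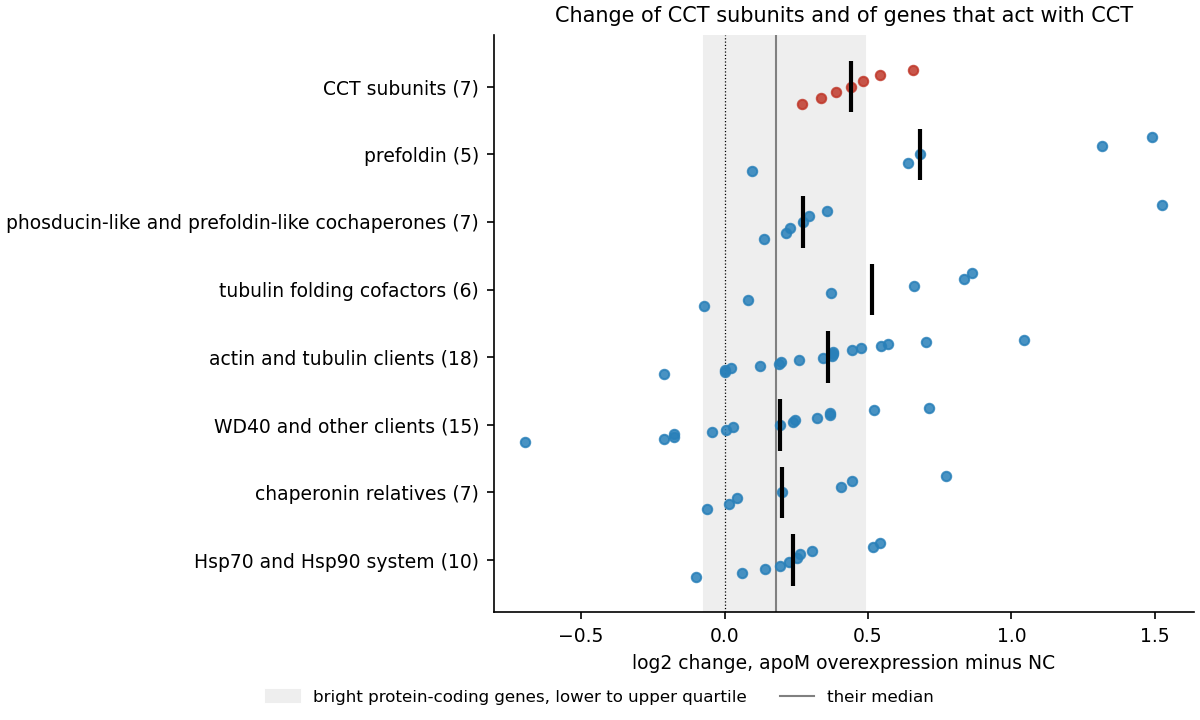
Log2 change, apoM overexpression minus NC, of every measured gene in the list of CCT subunits and in 7 lists of genes that act with CCT, with the number measured in brackets; black bars are list medians. The grey band runs from the lower to the upper quartile of the other bright protein-coding genes, -0.07 to 0.49. The grey line is their median of 0.18. Each of the 7 lists around CCT also holds genes dimmer than these. No gene shown passed an adjusted p of 0.05.

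Pseudogenes related to the subunit genes could add to the signal of a feature. Of 13 CCT pseudogenes measured, none passed, 9 had a positive change and 4 a negative one, with a median of 0.23. CCT8P1 had the largest change, 0.80 (limma adjusted p = 0.0675), and CCT6P1, the brightest, had 0.15. Whether the features of the subunits read these pseudogenes was not tested.

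The spans of subunit genes also hold small nucleolar RNAs. SNORA15, which lies inside the span of CCT6A and belongs to the H/ACA class that guides pseudouridylation, rose in the overexpression group. It read 10.14, 9.98 and 8.99 with apoM, against 7.87, 8.16 and 8.45 in NC, a change of 1.55 (SE 0.29, limma adjusted p = 0.0343). CCT6A, around it, had a change of 0.34, and the difference between the changes was not tested. The call of SNORA15 was lost without NC replicate 1 or 2 or overexpression replicate 1 or 2, with limma adjusted p-values from 0.121 to 0.137, and over all features (adjusted p = 0.0845). SNORA15 has related copies whose probes may read it. SNORA20, inside the span of TCP1, had 5.62, 5.58 and 3.97 with apoM against 3.31, 4.04 and 4.08 in NC, with overlapping groups (change 1.25, limma adjusted p = 0.132).

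The size of the changes depended on the scaling. Of 17 alternatives, 7 alter the genes tested, the features or the test and leave the changes of the subunits as they are. Under the other 10, which include the 6 arrays left out in turn, 69 of 70 changes were positive. With quantile normalization the median of the subunits was 0.27 and that of the bright protein-coding genes -0.02, against 0.44 and 0.18 without it. The subunits thus lay 0.28 above the bright genes with quantile normalization and 0.26 above them without it, and from 0.19 to 0.34 above them with 1 array left out. The subunits span 12.2 to 29.3 kb with introns, against medians of 26.1 kb over protein-coding genes and 23.3 kb over the bright ones, and with the span trend removed their median was 0.33 against 0.10 for the bright genes. CCT7 was the only subunit to pass an adjusted p of 0.05 under any alternative. It passed among genes above the median level, with eBayes set to trend and robust, with array weights and without NC replicate 3.

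**Figure D4:**
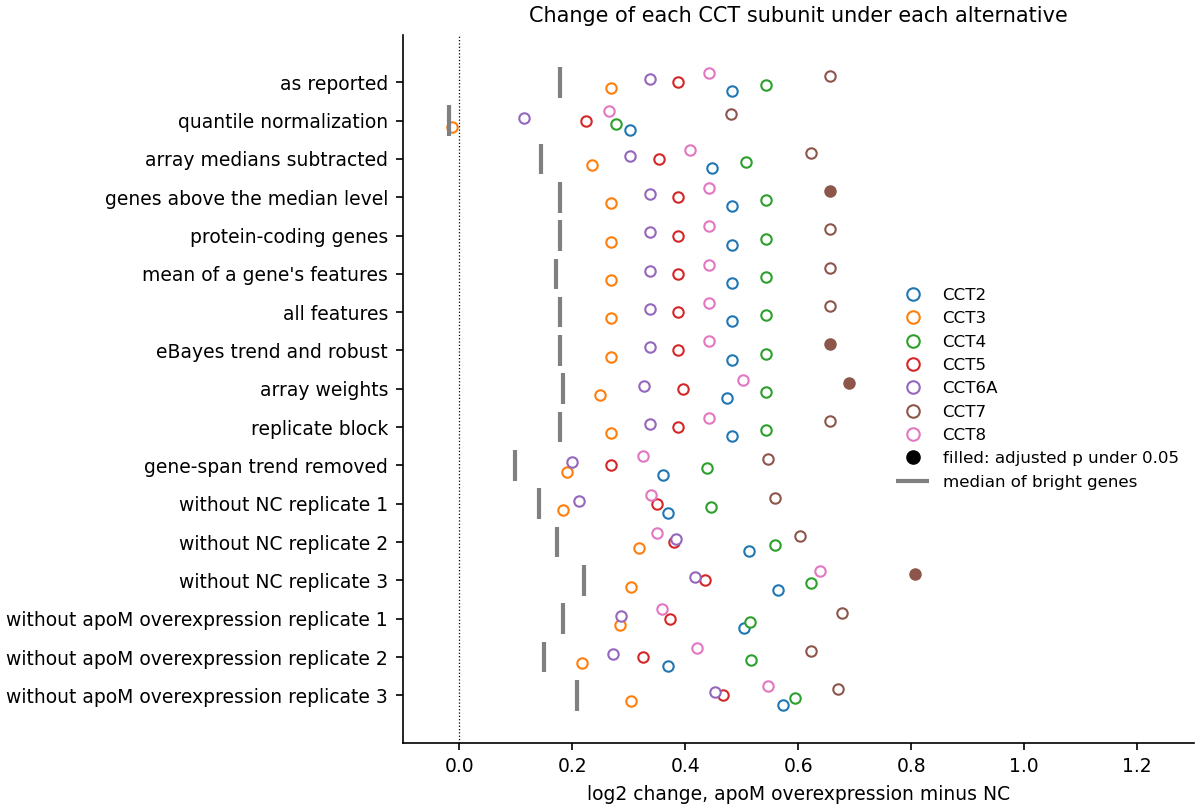
Log2 change, apoM overexpression minus NC, of each CCT subunit under each alternative in processing; filled points passed an adjusted p of 0.05 and grey bars are the median of the bright protein-coding genes in the same setting. CCT7 lies farthest to the right in every setting, from 0.48 with quantile normalization to 0.81 without NC replicate 3, and it alone has filled points.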

How the data were processed

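Expression was measured on 6 Affymetrix arrays, 3 of Caco-2 cells overexpressing apoM and 3 labelled NC. The range of the deposited values shows a log2 scale. Per the submitters' processing notes, the authors used Affymetrix Expression Console; neither its version nor the normalization or genome build is stated in the sources used here. Array medians lay from 4.48 to 4.53. No value of signal over background was used here, so dim genes were kept. Precision is limited by the 6 arrays.

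Of 135750 features, 36176 carry 1 gene symbol in the platform annotation, 1119 several and 98455 are unnamed here. Symbols were updated by gene ID for 25516 features and kept by symbol for 9899; 761 were not matched to the GRCh38.p14 table. The feature with the highest mean of the 6 arrays stood for a gene, which gave 33616 genes. Changes are apoM overexpression minus NC, tested over all genes with limma 3.58.1 in R 4.3.3 (lmFit, eBayes, two-sided, Benjamini-Hochberg, threshold 0.05). The procedure was also run on simulated arrays with independent noise for each gene, which do not cover shifts shared by many genes of an array.

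The members, lists and tests were chosen with earlier results of these data known. The genes named are the 7 subunits, APOM, every list gene past the threshold or otherwise up to 4 with the smallest p, pseudogenes, snoRNAs inside subunit spans and the 5 genes most alike. Overlapping genes, further list members (PFDN2, TBCD, TUBA1B, CCT6B, PTGES3 and the actins) and CCAAT boxes were added after their values were seen. Protein stretches were not analysed here. Promoters come from RefSeq. Figures were drawn with matplotlib 3.10.9.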

Additional observations from a re-analysis of the deposited data

How the results depend on the processing

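The changes of the subunits and of APOM, their median, the counts past the threshold and the difference between CCT7 and CCT3 were recomputed under 17 alternatives, and SNORA15 under the 14 that test it. The pseudogenes, overlapping genes, genes most alike, correlations, percentiles, principal components and medians of the other lists were not. No CCT subunit passed the threshold in the reported analysis, with quantile normalization, with array medians subtracted, among protein-coding genes, with the mean of a gene's features, over all features, or with the gene-span trend removed (lowess span 0.3). The count was 1 (CCT7) among genes above the median level (adjusted p = 0.0415, change 0.66), with eBayes trend and robust (0.0434), with array weights (0.0442, change 0.69) and at a threshold of 0.1. With 1 array left out it was 0 to 1, and 1 only without NC replicate 3. The median change of the subunits ran from 0.35 to 0.56 with 1 array left out and was 0.27 with quantile normalization, below the 0.44 reported by more than the SD between arrays of 0.16. CCT3 turned to -0.0134 with quantile normalization (adjusted p = 0.974). The difference between the changes of CCT7 and CCT3 stayed between 0.29 and 0.50.

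Of 68 genes in the lists around CCT, 0 passed as reported. Among genes above the median level, which hold 62 of them, 10 passed, as did 10.3% of all genes tested there. With eBayes trend and robust it was 8 (3.7% of all genes tested), with array weights 9 (5.0%) and at a threshold of 0.1 it was 13 (6.9%). With the span trend removed it was 1, PFDN4 (1.4%). With 1 array left out there were 0 to 10, and 10 only without NC replicate 3, where 7.0% of all genes passed. At an unadjusted p under 0.05 in limma were 6437 of all 33616 genes. Deviations of same-numbered arrays from their group means had correlations of -0.07, 0.03 and -0.07 over all genes. With means of only 3 arrays, these values cannot decide whether same-numbered arrays were handled together. With the replicate block, 0 subunits passed, CCT7 had an adjusted p of 0.122, SNORA15 lost its call (adjusted p = 0.0701), and the count over all genes was 50, against 691. Over all genes it was also 879 with quantile normalization, 1730 among genes above the median level, 1251 with eBayes trend and robust, 1679 with array weights, 195 among protein-coding genes, 241 with the span trend removed, 2 over all features on the features used, and 2 to 2358 with 1 array left out. Signal over background was not analysed here.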
